A study of Homo sapiens with 6 samples.

Results

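The genes described here are sensors of double-stranded RNA and the adaptors and transcription factors that act with them, 10 genes of the 19775 with a probe set that carries a single gene symbol. They are RIGI, IFIH1, DHX58, TLR3, EIF2AK2, MAVS, TICAM1, IRF3, IRF7 and ADAR, chosen by name, and they are represented by 21 probe sets. The cells were RT-112, a cell line from a human bladder carcinoma, and their RNA was hybridised to 6 expression arrays. In the siRNA 1 group the cells received siPPP2R2A_1 and in the siRNA 2 group siPPP2R2A_2, both against PPP2R2A, whose product is a regulatory subunit that directs protein phosphatase 2A to its substrates. The scramble group received a control siRNA, and each group has 2 arrays, A and B. All groups share the same handling, which was 50 nM siRNA given with Lipofectamine RNAiMAX to cells at 50% confluence, a repeat transfection after 24 h, and harvest 24 h later. Every group thus carried a transfected short double-stranded RNA, and no array is labelled as untransfected. The series describes the arrays as technical duplicates of 1 cell line, so p-values measure only the spread between these samples.

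RIG-I (RIGI) and MDA5 (IFIH1) are cytosolic helicases that bind double-stranded RNA and pass a signal through caspase recruitment domains to MAVS on mitochondria. LGP2 (DHX58) is a related helicase that lacks those domains and modulates the other two. TLR3 senses double-stranded RNA in endosomes and signals through TRIF, the product of TICAM1. Both routes activate IRF3 and IRF7, the factors that switch on type I and type III interferon genes. PKR (EIF2AK2) is a kinase that blocks translation when it binds double-stranded RNA, and ADAR edits adenosines in such RNA and thereby limits its detection. Several of these genes are themselves induced by interferon through repeated GAAA elements in their promoters. Short interfering RNAs can engage some of these sensors.

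RefSeq start-site windows on GRCh38.p14, 250 bases before and 50 bases after the start, were matched by symbol for 7 of the 10 members. The windows of IFIH1, EIF2AK2 and RIGI are printed, because these are the genes whose arrays stood highest against scramble. Each runs 5′ to 3′ on the gene's strand, with matches to paired GAAA elements in capitals.
IFIH1, chr2:162318635-162318934, minus strand: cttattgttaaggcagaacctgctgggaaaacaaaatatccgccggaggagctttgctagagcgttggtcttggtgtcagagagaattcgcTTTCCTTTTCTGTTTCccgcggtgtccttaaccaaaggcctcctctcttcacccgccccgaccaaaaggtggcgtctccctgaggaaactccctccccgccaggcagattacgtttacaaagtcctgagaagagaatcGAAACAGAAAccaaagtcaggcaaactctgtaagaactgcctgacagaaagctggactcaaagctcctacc
EIF2AK2, chr2:37156931-37157230, minus strand: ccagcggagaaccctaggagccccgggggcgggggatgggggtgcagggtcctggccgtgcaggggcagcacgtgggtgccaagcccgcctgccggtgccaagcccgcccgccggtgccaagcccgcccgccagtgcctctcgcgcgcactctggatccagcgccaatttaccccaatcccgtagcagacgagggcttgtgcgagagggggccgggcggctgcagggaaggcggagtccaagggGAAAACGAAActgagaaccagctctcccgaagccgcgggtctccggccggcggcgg
RIGI, chr9:32526147-32526446, minus strand: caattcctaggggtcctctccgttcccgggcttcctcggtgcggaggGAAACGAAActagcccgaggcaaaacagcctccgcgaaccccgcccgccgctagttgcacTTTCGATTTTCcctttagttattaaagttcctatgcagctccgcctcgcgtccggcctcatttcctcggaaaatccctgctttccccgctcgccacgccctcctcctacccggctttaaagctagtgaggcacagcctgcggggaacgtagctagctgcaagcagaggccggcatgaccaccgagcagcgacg
The motifs searched on both strands were GAAA, then 1, 2 or 3 bases of any kind, then GAAA again, and they were chosen with the sequences in view. Of the 35116 windows of 300 bases in the table, 3.12% held the motif with a spacer of 1 base, 3.57% with 2 bases and 2.86% with 3 bases. The IFIH1 window holds 3 matches with the spacer of 2 bases. The match on the gene's strand starts at position -21 from the start site. The other two lie on the opposite strand from -159 and -153 and overlap each other. In EIF2AK2 a match with the same spacer starts at -6, and TLR3, not printed, has such a match on the opposite strand at -4. RIGI holds a match with a spacer of 1 base from -203 and, on the opposite strand, one with 3 bases from -143. The windows of MAVS, TICAM1 and ADAR hold none of these motifs. These are descriptions of letters and not of bound sites.

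PPP2R2A, the targeted gene, read 336 and 397 with siRNA 1 and 510.0 and 533 with siRNA 2, against 1381 and 1589 with scramble (limma adjusted p = 0.0403 and 0.0461). When any 1 array was left out limma called 0 genes, PPP2R2A included, in each comparison. The unit throughout is linear signal per probe set, and levels of different probe sets cannot be set against each other. Across tested genes the correlation was 0.979 to 0.980 between duplicates and 0.970 to 0.978 between groups. For ACTB the 3′ probe set over the 5′ one, which grows as RNA degrades, gave 6.52 and 7.82 with siRNA 1, 7.47 and 12.4 with siRNA 2, and 5.43 and 5.94 with scramble. For GAPDH the same ratio was 0.943 to 1.02 on all 6 arrays, lowest on siRNA 2 B, where the ACTB ratio was highest. Their part in the results below was not tested. Of 12 epithelial and urothelial marker genes 10 were above the array median on all 6 arrays, with KRT18, KRT19, EPCAM and GATA3 among them, while the differentiation marker UPK3A was above it on 0. None of 8 leukocyte markers was above the median on all arrays, and PTPRC read 5.7 to 27.6. Their summed signal was 274 on both siRNA 1 arrays, 195 and 264 with siRNA 2, and 202 and 269 with scramble. Of 9 stromal and endothelial markers 4 were above the median on all arrays (CDH5, COL1A1, LUM and PECAM1), with a summed signal of 7863 and 6975 with siRNA 1, 6101 and 6039 with siRNA 2, and 6610 and 6375 with scramble. These sums did not overlap between groups, with siRNA 1 highest and siRNA 2 lowest. Most of each sum was LUM, at 6351 and 5518 with siRNA 1, 4546 and 4520 with siRNA 2, and 4975 and 4715 with scramble. COL1A1 did not follow this order, with 1034 and 867, 1123 and 1175, and 1116 and 960. The summed epithelial and urothelial signal was 140749 and 145894 with siRNA 1, 120619 and 128350 with siRNA 2, and 146422 and 141519 with scramble, lowest with siRNA 2. The part of these markers in the results was not tested.

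A gene was represented by its brightest probe set and was tested if that probe set exceeded the array's median signal, which lay between 69.3 and 76.2, on at least 2 arrays. By this rule 8 members were tested, and each of the 8 exceeded the median on all 6 arrays, so the filter did not favour any group. DHX58 and IRF7 were below the median on every array and were not tested. Across all 12735 genes tested, limma called 0.393% with siRNA 1 and 0.597% with siRNA 2, counting a gene as called where the adjusted two-sided p was under 0.05 and the fold 1.5 or more. It called 0 of the 8 members in either comparison, which with 2 arrays a group does not show that they did not differ.

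IFIH1 encodes MDA5 and showed the largest change from scramble among the tested members. Its signals were 929.8 and 953 with siRNA 1, 654 and 650.1 with siRNA 2, and 649 and 593 with scramble. Both siRNA 1 arrays stood far above the other 4 arrays, and the siRNA 2 arrays lay just above the scramble arrays. Mean signals were 941 ± 16.1 with siRNA 1, 652 ± 2.50 with siRNA 2 and 621 ± 39.6 with scramble (SD, n = 2 each). The log2 change with siRNA 1 was 0.60 (SE 0.0846, 95% interval 0.38 to 0.82), a fold of 1.52, at an unadjusted p = 0.0011 and a limma adjusted p = 0.0807. With siRNA 2 it was 0.07 (95% interval -0.15 to 0.29, adjusted p = 0.690). When its prior variance was allowed to follow signal intensity (an intensity trend), limma called IFIH1 higher with siRNA 1 (adjusted p = 0.0115), when it called 2.35% of all genes in either direction and 1.37% higher. It was also called when only genes above the median on all 6 arrays were tested (adjusted p = 0.0316), when 2.25% of those genes were called and 1.23% called higher. In these bulk samples, more cells expressing a gene and more RNA per cell cannot be told apart.

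The other IFIH1 probe sets were dim. On 1555464_at the signals were 95.6 and 57.2 with siRNA 1, 49.4 and 36.1 with siRNA 2, and 52.9 and 44.2 with scramble. The siRNA 1 arrays were again the highest, although a single array exceeded its median. On 216020_at the groups overlapped, with 77.5 and 33.0, 52.1 and 58.3, and 19.6 and 69.8 in the same order. These 2 probe sets failed the filter, and no test was made on them.

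RIGI was higher with siRNA 1 on all 3 of its probe sets. On 218943_s_at it read 1003 and 949 with siRNA 1, 868 and 803 with siRNA 2, and 692 and 618 with scramble. The groups did not overlap, and siRNA 2 lay between the other two. On 222793_at the signals were 471 and 505 with siRNA 1, 491 and 399.8 with siRNA 2, and 369.6 and 334 with scramble. Both knockdown groups were above scramble there and overlapped each other. The brightest probe set, 242961_x_at, read 1131 and 1079.8, 906 and 953, and 868 and 878 in the same order. It is of a type that can also bind related transcripts, and on it siRNA 2 was only slightly above scramble.

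In the fit of every probe set on its own, RIGI stood at log2 changes of 0.58, 0.47 and 0.34 with siRNA 1 (adjusted p = 0.175, 0.289 and 0.264). That fit called 0 of the 16 tested member probe sets in any comparison, against 0.0% of all probe sets with siRNA 1, 0.00417% with siRNA 2 and 0.0% between the siRNAs. With siRNA 2 the changes were 0.35, 0.33 and 0.09 (adjusted p = 0.215, 0.311 and 0.660). In the fit over genes, which uses 242961_x_at, the adjusted p was 0.171 with siRNA 1 and 0.581 with siRNA 2. The choice of probe set thus moved the siRNA 2 value from 0.09 to 0.35. DHX58, the LGP2 gene, read 10.8 and 6.80 with siRNA 1, 4.91 and 6.82 with siRNA 2, and 6.44 and 5.59 with scramble, all far below the array medians.

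**Figure D1:**
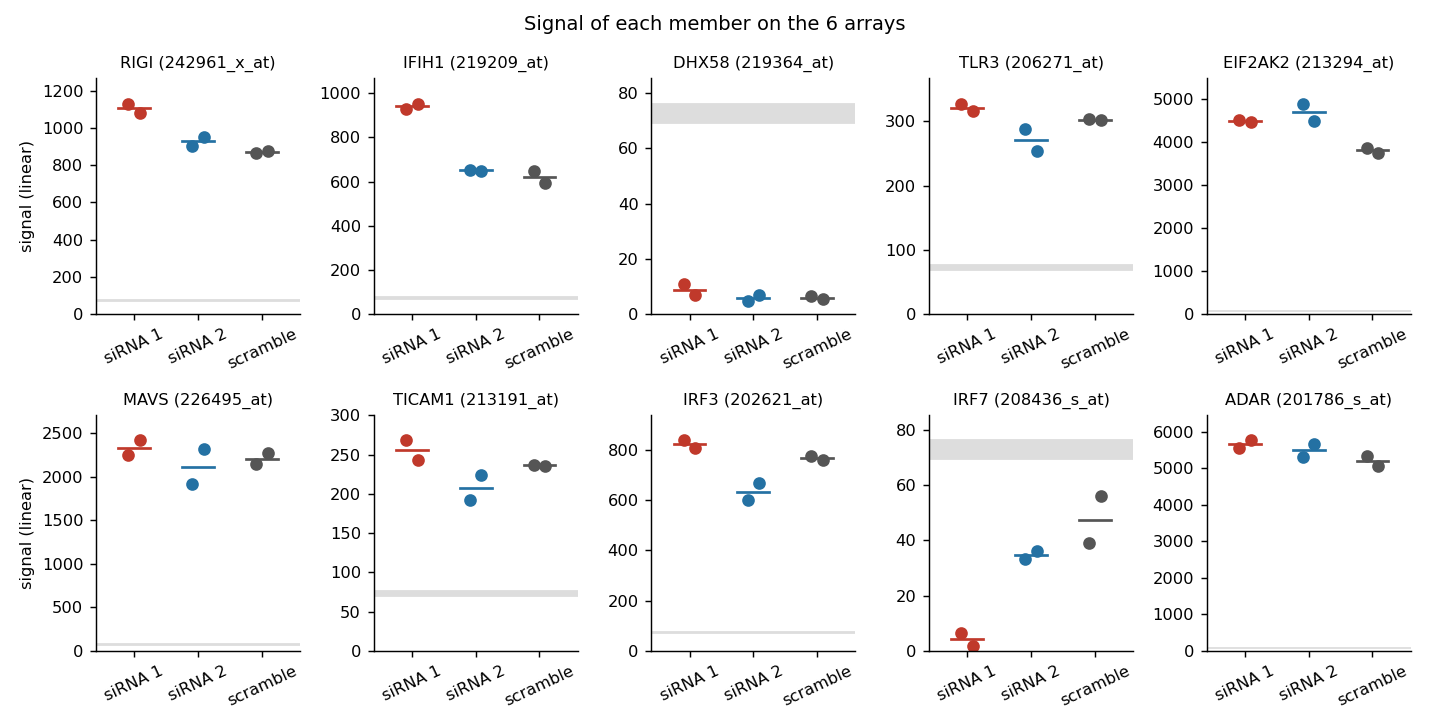
Linear signal of each member's brightest probe set on the 6 arrays. Points are single arrays, short bars are group means (n = 2) and the grey band spans the array medians of 69.3 to 76.2. IFIH1 stands at 929.8 and 953 with siRNA 1 against 593 to 654 on the other 4 arrays, and DHX58 and IRF7 lie below the band on all arrays.

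TLR3, the endosomal receptor, differed little between groups. On 206271_at it read 328 and 316 with siRNA 1, 288 and 254 with siRNA 2, and 303 and 302 with scramble. The siRNA 1 arrays were above and the siRNA 2 arrays below both scramble arrays. The log2 changes were 0.09 (95% interval -0.16 to 0.34) and -0.16 (-0.41 to 0.09), at limma adjusted p = 0.703 and 0.408. On 239587_at, nearly as bright, the groups overlapped, with 323 and 283, 308 and 280.1, and 313 and 276. The dim 242667_at read 36.9 and 5.27 with siRNA 1, 56.8 and 45.8 with siRNA 2, and 14.4 and 27.2 with scramble, below the median on every array.

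TICAM1, which encodes the TLR3 adaptor TRIF, has 1 probe set, with signals of 268 and 243 with siRNA 1, 192 and 224 with siRNA 2, and 237 and 236 with scramble. As for TLR3, siRNA 1 was above and siRNA 2 below scramble without overlap. Its log2 changes were 0.11 (95% interval -0.18 to 0.40, adjusted p = 0.686) and -0.19 (-0.48 to 0.11, adjusted p = 0.418). Leaving out 1 array moved them between 0.039 and 0.18 with siRNA 1 and between -0.30 and -0.077 with siRNA 2.

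MAVS, the mitochondrial adaptor of RIG-I and MDA5, has 4 bright probe sets whose changes differed in sign. The brightest, 226495_at, read 2242 and 2415 with siRNA 1, 1911 and 2317 with siRNA 2, and 2147 and 2265 with scramble. These groups overlapped (log2 changes 0.08 and -0.07, adjusted p = 0.804 and 0.802). On 231829_at the signals were 531 and 774, 870.1 and 904, and 634 and 584. There the siRNA 2 arrays alone stood above scramble (log2 change 0.54 with siRNA 2, 95% interval 0.02 to 1.07, adjusted p = 0.265 over all probe sets). On 229741_at siRNA 2 was also above scramble, with 2102 and 2019.7 against 1548 and 1806 (log2 change 0.30, adjusted p = 0.419). On 220305_at siRNA 1 was below scramble, with 1546 and 1565 against 1985 and 1835 (log2 change -0.29, adjusted p = 0.426). No direction can be given for MAVS as a gene from these values.

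EIF2AK2, the PKR gene, was higher with both siRNAs on its brightest probe set, 213294_at. The signals were 4502 and 4455 with siRNA 1, 4884 and 4487 with siRNA 2, and 3862 and 3738 with scramble. All 4 knockdown arrays lay above both scramble arrays, and the knockdown groups overlapped. The log2 changes were 0.24 (95% interval 0.02 to 0.46, adjusted p = 0.284) and 0.30 (0.08 to 0.52, adjusted p = 0.152). The other two probe sets did not show this. On 204211_x_at, of the type that can also bind related transcripts, the groups overlapped, with 1156 and 1371, 1106 and 1279, and 1476 and 1182. On the dimmer 242898_at they also overlapped against scramble, with 158 and 207, 138 and 84.9, and 134 and 182. The mean over its probe sets turned the siRNA 2 value to -0.12.

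ADAR, the editing enzyme that limits detection of self RNA, read 5548 and 5758 with siRNA 1, 5315 and 5664 with siRNA 2, and 5343 and 5059 with scramble. The siRNA 1 arrays were narrowly above scramble and the siRNA 2 arrays overlapped it. The log2 changes were 0.12 (95% interval -0.10 to 0.34) and 0.08 (-0.14 to 0.30), so that a change of 1.5-fold lies outside both intervals. The adjusted p was 0.550 and 0.658.

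Of the transcription factors, IRF3 read 839 and 808 with siRNA 1, 602 and 667 with siRNA 2, and 776 and 761 with scramble. The siRNA 2 arrays were the lowest and the siRNA 1 arrays the highest, with no overlap among the 3 groups. The log2 change with siRNA 2 was -0.28 (95% interval -0.51 to -0.04, unadjusted p = 0.0285, adjusted p = 0.187), and with siRNA 1 it was 0.10 (-0.13 to 0.33, adjusted p = 0.644). IRF7 read 6.54 and 1.81 with siRNA 1, 33.4 and 36.0 with siRNA 2, and 38.9 and 56.0 with scramble. The siRNA 1 arrays were the lowest, but all 6 signals were below the array medians and no fold is given.

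**Figure D2:**
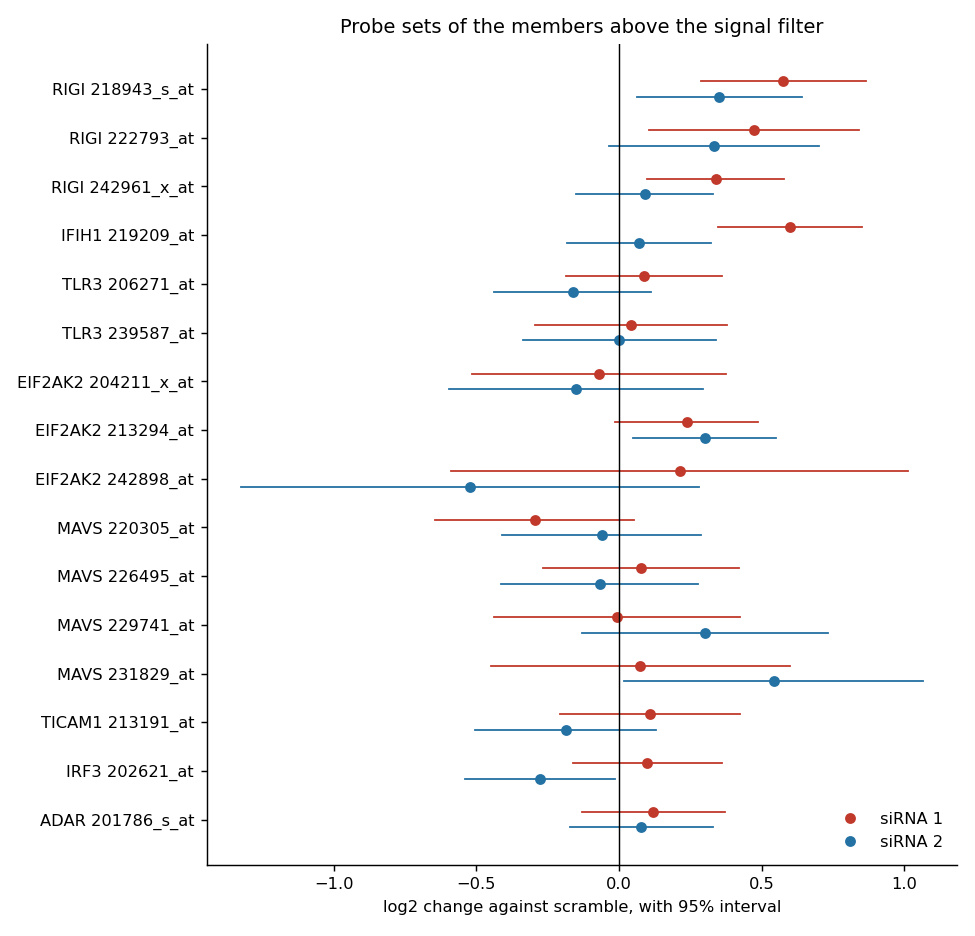
Log2 change against scramble of the 16 member probe sets that passed the filter, with siRNA 1 in red above siRNA 2 in blue and 95% intervals from limma (n = 2 arrays per group). With siRNA 1 the RIGI and IFIH1 intervals lie above 0, at changes of 0.34 to 0.60, while the EIF2AK2 and MAVS probe sets fall on both sides of 0.

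Counted over tested genes, 8 of 8 members had a log2 change above 0 with siRNA 1, with a median of 0.12, against 52.2% of all genes tested and a median of 0.01. With probe sets averaged per gene 6 of 8 lay above 0, TLR3 standing at -0.10 and MAVS at -0.037, and without scramble array B 7 of 8 did, TLR3 standing at -0.048. The 2 siRNA 1 arrays stood above both scramble arrays for 7 of the 8, all but MAVS, and below them for 0. Over all genes these shares were 26.7% and 22.7%. At an unadjusted p under 0.05, IFIH1, RIGI and EIF2AK2 were higher and 0 members lower, against 9.55% of genes higher and 6.65% lower. With siRNA 2 there was no common direction. Of the 8 members 4 lay above 0 (52.4% of all genes), the median was 0.00 (0.02 over all genes), and IFIH1, RIGI and EIF2AK2 (3 of 8) stood above both scramble arrays. TLR3, TICAM1 and IRF3 (3 of 8) stood below both, against 28.4% of all genes above and 24.0% below. EIF2AK2 was higher and IRF3 lower at an unadjusted p under 0.05, against 12.0% and 8.76% of genes. Both comparisons use the same scramble arrays. Over probe sets, 9 of the 16 tested stood above scramble and 1 below with siRNA 1 (23.7% and 23.0% of all probe sets), and 7 above and 3 below with siRNA 2 (24.7% and 25.9%).

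The direct contrast of the siRNAs asks whether the members differ between the 2 knockdown groups, and it does not use the scramble arrays for the difference itself. All tested members except EIF2AK2 had a log2 difference above 0, siRNA 1 minus siRNA 2, with a median log2 difference of 0.25 against -0.01 over all genes, of which 48.8% lay above 0. Other lists stood on the same side. Of 8 tested genes listed as sensors of DNA and other microbial products or their adaptors 6 lay above 0 with a median of 0.25. That list includes ZNFX1, which also senses double-stranded RNA. Of 11 tested epithelial and urothelial markers 10 lay above 0 with a median of 0.17. Limma called 0 of the 8 members, against 0.212% of all genes. IFIH1 differed most, at 0.53 (SE 0.0846, 95% interval 0.31 to 0.75, unadjusted p = 0.00189, adjusted p = 0.0877). With an intensity trend its adjusted p was 0.0181, at a fold of 1.44, under the 1.5-fold limit, and 2.84% of all genes were called. IRF3 stood at 0.38 (0.14 to 0.61, adjusted p = 0.143), TICAM1 at 0.30 (adjusted p = 0.262), RIGI at 0.25 (adjusted p = 0.211) and TLR3 at 0.25 (adjusted p = 0.264). These were the 5 members with an unadjusted p under 0.05, all higher, against 9.16% of genes higher and 9.53% lower by that measure. By brightest probe set the siRNA 1 arrays were above both siRNA 2 arrays for the same 5 and below both for 0. Over all genes these shares were 24.2% and 26.5%. Of the 16 tested member probe sets 7 stood above and 3 below. The share over all probe sets is not given here, so these counts cannot be called unusual. The 3 below were MAVS 220305_at, 229741_at and 231829_at, at log2 differences of -0.23, -0.31 and -0.47. EIF2AK2 on its brightest probe set stood at -0.06 (95% interval -0.28 to 0.16), and ADAR at 0.04 (-0.18 to 0.26). Both intervals exclude a 1.5-fold difference. For EIF2AK2 this does not hold on every probe set. On 242898_at both siRNA 1 arrays lay above siRNA 2, at 0.74 (-0.07 to 1.54, limma adjusted p = 0.339 over all probe sets). On 204211_x_at the difference was 0.08. Without siRNA 2 array B, which had the highest ACTB ratio, 7 of 8 members had a difference above 0, and without siRNA 2 array A 6 did. Either way 1 siRNA 2 array is left, and the shares over all genes were not taken. The part of RNA quality in the difference was not tested.

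The genes around the sensors were read from lists of partners. Among 24 tested genes of RIG-I-like receptor and TLR3 signalling, limma called 0 with either siRNA, and the medians were 0.08 and 0.07. ZCCHC3, a co-sensor that helps RIG-I and MDA5 bind RNA, read 1939 and 1988 with siRNA 1, 1745 and 2058 with siRNA 2, and 1082 and 949.9 with scramble. Both knockdown groups were well above scramble (log2 changes 0.95 and 0.90, adjusted p = 0.0800 and 0.0596), and with an intensity trend limma called it with both (adjusted p = 0.000733 and 0.000918). With the trend limma called 3.71% of all genes with siRNA 2, 2.29% higher and 1.41% lower. TBK1, the kinase that phosphorylates IRF3, stood at 0.09 and 0.19 (adjusted p = 0.735 and 0.389). NLRX1, a mitochondrial regulator of MAVS signalling, was dim, with 71.2 and 95.5, 22.3 and 67.4, and 39.0 and 25.6, and was not called.

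Among 11 tested regulators of PKR, eIF2 factors and other double-stranded RNA-binding proteins, 0 were called and the medians were -0.02 and 0.11. DNAJC3, which encodes an inhibitor of PKR that also acts as a chaperone in the endoplasmic reticulum, read 3858 and 3726 with siRNA 1, 4099 and 3834 with siRNA 2, and 2586 and 2154 with scramble. It stood above scramble with both (log2 changes 0.68 and 0.75, adjusted p = 0.108 and 0.0723), and was called with both under an intensity trend. PPP1R15B, a subunit that directs phosphatase 1 to eIF2 alpha, read 2701 and 2682, 2302 and 2041, and 3235 and 3313 in the same order. Its log2 changes were -0.28 and -0.59 (adjusted p = 0.261 and 0.0701), and the siRNA 2 change was called lower with the trend. Of 13 tested OAS and helicase genes 0 were called. OAS3, a synthetase that activates RNase L, stood at 0.29 and 0.26 (adjusted p = 0.280 and 0.244) and DDX60L at -0.31 and -0.25. OASL, a relative of OAS that binds RIG-I, was chosen after its values were seen. It read 6708 and 5974 with siRNA 1, 3244 and 2750.4 with siRNA 2, and 4991 and 4565 with scramble. Its difference between the siRNAs was 1.08 (adjusted p = 0.0655, and 0.000235 with an intensity trend).

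**Figure D3:**
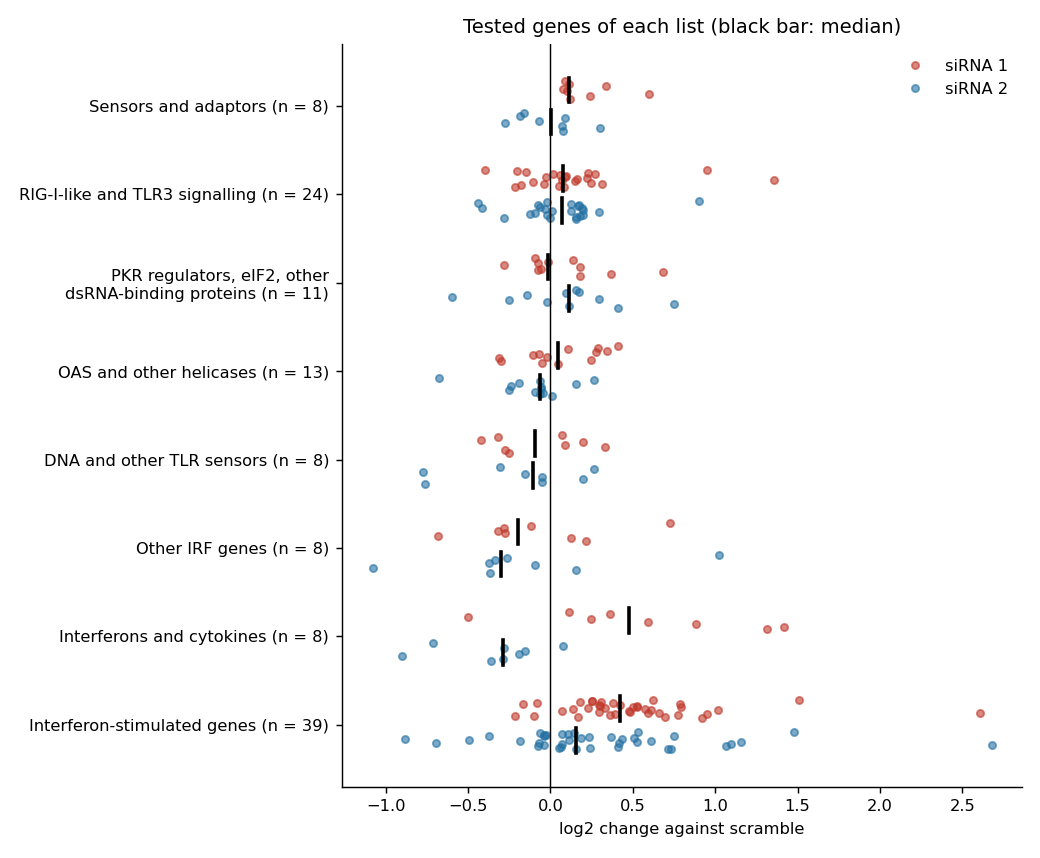
Log2 change against scramble of the tested genes of each list, siRNA 1 in red above siRNA 2 in blue, with black bars at the medians. The sensors and adaptors have medians of 0.12 and 0.00. The list labelled interferons and cytokines, which also holds PMAIP1, has medians of 0.48 and -0.29.

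The genes that these pathways switch on were measured on the same arrays. The interferon genes IFNB1, IFNA1 and IFNA2 were below the array median on every array, with IFNB1 at 4.0 and 5.8 with siRNA 1, 3.4 and 3.8 with siRNA 2, and 7.0 and 7.1 with scramble. IFNL1, a type III interferon, read 69.4 and 109.7, 71.4 and 61.0, and 55.3 and 97.8, near the median in all groups. The chemokine CXCL10, which IRF3 and interferon both induce, read 714 and 889.8 with siRNA 1, 243 and 244 with siRNA 2, and 267 and 331 with scramble. Like IFIH1 it was high on the siRNA 1 arrays alone (log2 change 1.42, adjusted p = 0.0633), and the difference between the siRNAs was 1.71 (adjusted p = 0.0575, and 0.000411 with an intensity trend). CCL5, another such chemokine, read 932 and 859, 244 and 320.5, and 410.3 and 315 (difference between the siRNAs 1.67, adjusted p = 0.0655). Of the 8 tested interferon, cytokine and other output genes 7 were above 0 with siRNA 1 and 1 with siRNA 2, and limma called 0 in both. The 1 above 0 with siRNA 2 was PMAIP1, at 0.08, which encodes neither an interferon nor a cytokine.

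The 39 tested interferon-stimulated genes had medians of 0.42 with siRNA 1, where 35 lay above 0, and 0.15 with siRNA 2, where 27 did. Limma called IFI44L with both siRNAs (log2 changes 2.61 and 2.68, adjusted p = 0.0368 and 0.0385) and IFI6 with siRNA 2 (1.10, adjusted p = 0.0490). Both are interferon-induced genes, and 0 genes of the list were called lower. Over all genes 0.212% were called higher with siRNA 1 and 0.44% with siRNA 2. IFI44L read 572 and 493 with siRNA 1 and 578 and 539 with siRNA 2, against 80.4 and 92.9 with scramble, so that here the siRNA 1 and siRNA 2 arrays overlapped. With an intensity trend 8 of these 39 genes were called higher with siRNA 1, against 1.37% of all genes. With siRNA 2, 7 were called higher and 1 lower, against 2.29% and 1.41% of all genes.

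The 5 genes with the array profile nearest to that of IFIH1 were found by the Euclidean distance between log2 signals, each centred on its mean over the 6 arrays. They were ZMYM6 (distance 0.114), SPPL2A (0.138), KLF4 (0.146), GCNT7 (0.147) and IFNGR1 (0.168). SPPL2A encodes an intramembrane protease, KLF4 an epithelial transcription factor and IFNGR1 a chain of the interferon gamma receptor. Their log2 changes were 0.48 to 0.62 with siRNA 1 and -0.05 to 0.20 with siRNA 2, and limma called 0 of them. IFNGR1 read 4754 and 5183 with siRNA 1, 3325 and 3499 with siRNA 2, and 3570.4 and 3478 with scramble, so its siRNA 1 arrays alone stood out. With 6 arrays, nearness of profile is a description only.

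**Figure D4:**
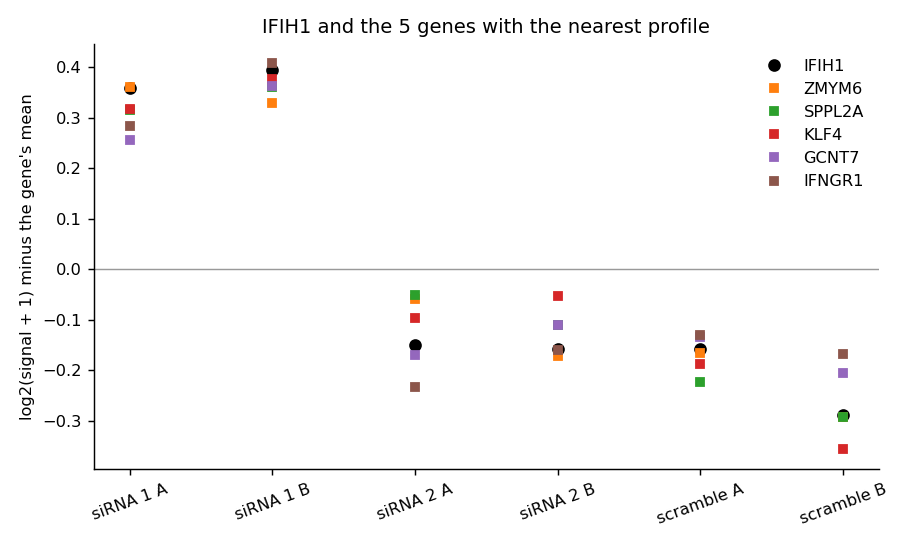
Log2(signal + 1) minus the gene's mean over the 6 arrays, for IFIH1 (black circles) and the 5 genes nearest to it (coloured squares). All 6 genes are highest on the 2 siRNA 1 arrays and below their mean on the other 4 arrays.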

How the data were processed

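The authors deposited intensity on a linear scale, 1 table of 54675 probe sets on 6 arrays, made by the authors with Affymetrix Expression Console per the submitters' processing notes. They name a tool only, its algorithm and version not given in the sources used here, and detection calls were not used here. The trimmed mean (2% off each tail) was 500.067 to 500.07 on every array. The number of arrays limits the precision.

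Values were used as deposited, as log2(signal + 1). Symbols came from the platform table, looked up by Entrez identifier in RefSeq, where 41043 of 41097 single-symbol probe sets matched and 0 changed. Of the 62 control probe sets 6 carried a single symbol and were left out. Each gene was its probe set of highest mean log2 signal. Limma 3.58.1 in R 4.3.3 (lmFit with a coefficient per group, then eBayes, all 6 arrays) was fitted over 12735 genes and, separately, over 23969 probe sets, with Benjamini-Hochberg adjustment over each. Calls needed an adjusted p under 0.05 and 1.5-fold. The script was tested on simulated data. Figures used matplotlib 3.10.9.

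The members and lists were chosen with earlier results of these data known. Named are PPP2R2A, every member, the called genes of each list or else the 2 with the largest mean change, and the 5 genes nearest the leading member. The marker genes, TBK1, OASL, PMAIP1, MYD88, STING1, ZNFX1, IFNB1, IFNA1, IFNA2 and IFNL1 were named outside that rule. In the main fit the arrays were not paired by replicate letter. A minus B correlated between groups at -0.03 to 0.04, so no shared shift was seen, which does not exclude a pairing.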

Additional observations from a re-analysis of the deposited data

Results flagged for a closer look

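For 3 genes both siRNA 1 arrays lay above and both siRNA 2 arrays below the 2 scramble arrays. They were picked by this order, and its share over all genes was not taken, so the count cannot be called unusual. The log2 difference siRNA 1 minus siRNA 2 was 0.38 for IRF3 202621_at (limma adjusted p = 0.205 over all probe sets), 0.30 for TICAM1 213191_at (adjusted p = 0.330) and 0.25 for TLR3 206271_at (adjusted p = 0.342). By the test of the difference, 0 of the 3 were called. Leaving out 1 array moved the difference between 0.30 and 0.45 for IRF3, between 0.19 and 0.41 for TICAM1 and between 0.041 and 0.34 for TLR3. For TLR3 the other bright probe set, 239587_at, stood at 0.04 (adjusted p = 0.908).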

How the results depend on the processing

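Of 360 values of the 8 tested members (24 log2 changes under 15 other settings each), 346 kept their direction and their side of the threshold, 2 passed the threshold and 12 changed sign. The count of called members was 0 in all 3 comparisons, and became 1 (IFIH1) for siRNA 1 against scramble with an intensity trend and with genes above the median on all 6 arrays. The adjusted p of IFIH1 with siRNA 1 ran from 0.0115 to 0.537 over the settings, and its log2 change from 0.53 to 0.66. The members' count above 0 with siRNA 1 lay between 6 and 8 of 8. Averaging all probe sets of a gene turned TLR3 to -0.10, 0.39 and -0.49 (siRNA 1, siRNA 2, and their difference), MAVS to -0.037, 0.18 and -0.22, and EIF2AK2 to -0.12 with siRNA 2 and 0.25 for the difference. Those averages take in the dim or discordant probe sets described above. Leaving out 1 array at a time, TLR3 lay between -0.048 (without scramble B) and 0.14 against scramble for siRNA 1, and between -0.25 and 0.0016 (without siRNA 1 B) for siRNA 2, where the brightest probe set changed to 239587_at. MAVS lay between -0.21 and 0.071 (without siRNA 2 A) for siRNA 2, and ADAR between -0.0029 (without siRNA 2 A) and 0.089 for the difference. Without siRNA 2 array B, chosen after seeing the data for its ACTB ratio, the members' median with siRNA 2 was -0.02, with 4 of 8 above 0. Their median difference between the siRNAs was then 0.29, with 7 of 8 above 0. Without siRNA 2 array A the medians were 0.07, with 5 of 8 above 0, and 0.20, with 6 of 8. Each of these fits holds 1 siRNA 2 array, and the shares over all genes were not taken. With the replicate block IFIH1 with siRNA 1 had an adjusted p = 0.183, and limma called 0 genes in all. Over all genes, calls with siRNA 1 numbered 50, against 299 with an intensity trend, 244 with genes above the median on all arrays, 11 after centring arrays on their medians and 0 without each array in turn. Centring shifted the median of all genes by at most 0.025, for siRNA 2 against scramble. Of the interferon-stimulated genes 0 were called without any 1 array, against 1 with siRNA 1 and 2 with siRNA 2. Dim probe sets such as those of IRF7 and DHX58 cannot be compared at these signals.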

Other observations

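Sensors of DNA and of other microbial products were measured beside the double-stranded RNA sensors. Their list also holds the adaptors MYD88 and STING1, and ZNFX1, which also senses double-stranded RNA. Limma called 0 of 8 tested, with medians of -0.09 with siRNA 1 and -0.11 with siRNA 2. AIM2, an inflammasome sensor of DNA, read 3111 and 2906 with siRNA 1, 1955 and 2270.4 with siRNA 2, and 3622 and 3536 with scramble (log2 changes -0.25 and -0.76, adjusted p = 0.344 and 0.0614). TLR4, the receptor for bacterial lipopolysaccharide, stood at -0.42 and -0.77 (adjusted p = 0.343 and 0.116). Both were called lower with siRNA 2 by limma with an intensity trend (adjusted p = 0.000888 and 0.0425), where 1.41% of all genes were called lower.

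Among 8 other tested IRF genes and IRF2-binding proteins limma called 0. IRF9, the DNA-binding partner of the STAT factors in the interferon response, read 1559.8 and 1256 with siRNA 1, 1568 and 1887 with siRNA 2, and 811 and 886 with scramble (log2 changes 0.72 and 1.02, adjusted p = 0.156 and 0.0695). It was called higher with both siRNAs under an intensity trend (adjusted p = 0.0103 and 0.00129). IRF2BP1 was dim and spread widely, with 37.8 and 156, 114 and 29.7, and 118 and 132.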
